A study of Mus musculus with 6 samples.

Results

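The facilitated glucose transporters are the GLUT proteins of the SLC2 family, and 6 of their genes, Slc2a1, Slc2a2, Slc2a3, Slc2a4, Slc2a8 and Slc2a9, were followed in the livers of mice without miR-137. Every probe set annotated to exactly 1 gene symbol, that symbol being 1 of these 6, was taken, without regard to its values. This gave 13 of the 45037 probe sets tested (3 for Slc2a1, 1 for Slc2a2, 4 for Slc2a3, 2 for Slc2a4, 1 for Slc2a8 and 2 for Slc2a9), or 6 of 18032 genes, and no level filter removed any of them.

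GLUT proteins let hexoses cross the cell membrane down their concentration gradient, without energy from sodium or ATP. The liver carries sugar in both directions: hepatocytes take up glucose after a meal and release it in fasting, largely through GLUT2, while other isoforms serve blood cells, vessels, muscle and fat. Not every member carries mainly glucose, since GLUT9 is best known for moving urate.

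The data were 6 Affymetrix mouse genome expression arrays of whole liver at postnatal day 14, with 3 livers of homozygous miR-137 knockout mice (Mir137-/-) and 3 of wild-type mice (Mir137+/+). The knockout was a whole-body germline deletion, made with Cre from floxed embryonic stem cells of another strain than C57BL/6, and chimeras were crossed to C57BL/6 before heterozygous littermates were intercrossed. According to the methods the arrays came from individual male mice. The deletion was not limited to hepatocytes, so a difference in liver RNA was not assigned to the liver. Both genotypes came from this mixed background, and strain differences between the mice, also those near the deletion, were not measured. No probe set was annotated to Mir137, so the genotype labels could not be checked on the arrays. The miRNA pair that the deleted exons encode is shown here with each seed (bases 2 to 8) in capitals, as RefSeq gives it on the plus strand of GRCm38.p6:

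mmu-miR-137-5p, chr3:118433865-118433887: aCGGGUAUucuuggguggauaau

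mmu-miR-137-3p, chr3:118433901-118433923: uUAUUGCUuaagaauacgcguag

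The transporter genes lie on 6 different chromosomes of the same build: Slc2a1 at chr4:119108745-119137330, Slc2a2 at chr3:28697903-28728361, Slc2a3 at chr6:122727809-122802363, Slc2a4 at chr11:69942286-69948216, Slc2a8 at chr2:32972981-32982083 and Slc2a9 at chr5:38349272-38503147. Slc2a2 is on the chromosome of the deletion, 89.7 Mb away.

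The 6 arrays had medians of 4.89 to 4.92 on the log2 scale. The 9 measured hepatocyte markers lay between 10.4 and 13.79 on every array, as the label liver requires. Several arrays stood apart. The female-specific transcript Xist, at 3.66 to 4.24 on 4 arrays, reached 10.91 on Mir137+/+ replicate 2 and 10.81 on Mir137+/+ replicate 3, which goes against an all-male set. Mir137-/- replicate 1 carried skeletal muscle transcripts, and Mir137-/- replicate 2 and Mir137+/+ replicate 2 carried exocrine pancreas transcripts. The differences of Slc2a3, Slc2a4 and the called genes of related lists are given without some of these arrays below, and the marker lists only with all 6 arrays.

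All values below are log2 expression levels of 1 probe set, and a difference is the Mir137-/- mean minus the Mir137+/+ mean (n = 3 arrays per group, mean ± SD). Levels of different probe sets were not ranked against each other. A probe set was called where limma's Benjamini-Hochberg adjusted p over all probe sets was below 0.05 and the fold change was above 1.5, the thresholds that the study's methods name.

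Of the glucose transporters, only Slc2a3 passed these thresholds: 2 of its 4 probe sets fell in Mir137-/- liver, by 1.55-fold and 1.54-fold. None of the other 11 probe sets passed in either direction, and none of the 13 was called higher. Among all probe sets 4.52% were called (1.94% higher and 2.58% lower), so 2 of 13 is a small count to read against that background. The groups did not overlap in 2 of the 13 probe sets, both lower in Mir137-/- (27.5% of all probe sets did not overlap, 13.9% in the lower direction). The median difference of the 13 was -0.05, beside 0.01 for all probe sets.

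**Figure D1:**
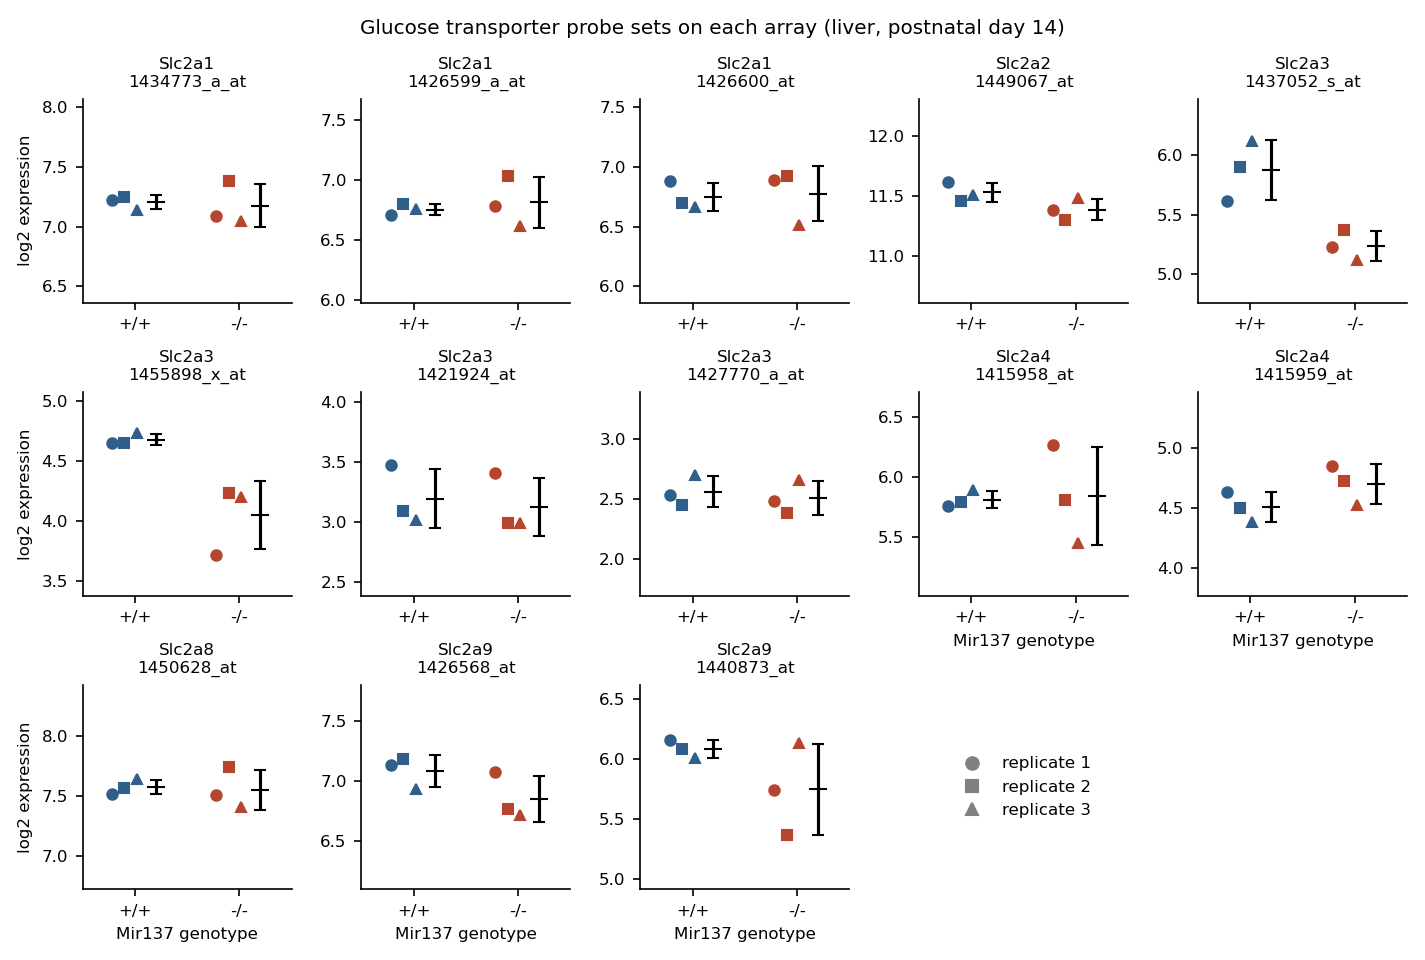
Log2 expression of each of the 13 glucose transporter probe sets in Mir137+/+ (blue) and Mir137-/- (red) liver; each marker is 1 array, its shape gives the replicate, and the black bar is the mean ± SD (n = 3). Every panel spans the same log2 height on its own offset, and only the Slc2a3 panels 1437052_s_at and 1455898_x_at show groups that do not overlap.

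Slc2a2 encodes GLUT2, the low-affinity, high-capacity transporter of the hepatocyte membrane. Its probe set 1449067_at read 11.38, 11.30 and 11.48 in Mir137-/- replicates 1 to 3 and 11.62, 11.46 and 11.51 in Mir137+/+ replicates 1 to 3. The groups overlapped, with Mir137-/- replicate 3 above Mir137+/+ replicate 2. The means were 11.39 ± 0.09 and 11.53 ± 0.08, a difference of -0.14 (SE 0.10, 95% interval -0.37 to 0.08, limma adjusted p = 0.451). The interval lay inside the 1.5-fold band. The difference stayed between -0.23 and -0.10 over 18 alternative settings and was called in none of them. Slc2a2 also marks pancreatic beta cells. The 5 measured islet markers had a median deviation from the Mir137+/+ mean of 0.87 on Mir137-/- replicate 2, where 4 of the 5 were highest, and of 0.19 on Mir137+/+ replicate 2, where Gcg was at its lowest (2.46), against -0.22 to -0.06 on the other arrays. Slc2a2 read lowest of its genotype on both of these arrays, and the part of islet transcripts in its values was not tested.

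Slc2a1 encodes GLUT1, the basal transporter of endothelium and most dividing cells. Its probe set 1434773_a_at read 7.09, 7.38 and 7.05 in Mir137-/- and 7.22, 7.25 and 7.14 in Mir137+/+ liver. The Mir137-/- values enclosed the Mir137+/+ values. The difference was -0.03 (7.17 ± 0.18 against 7.20 ± 0.06, SE 0.11, 95% interval -0.29 to 0.23, limma adjusted p = 0.913). The other Slc2a1 probe sets, 1426599_a_at and 1426600_at, differed by 0.06 (-0.22 to 0.34) and 0.03 (-0.28 to 0.33). All 3 intervals excluded a 1.5-fold change in either direction. Of the cell type markers, 0 of 7 endothelial and 0 of 9 erythroid genes were called, counts near the 5.72% of all genes called. The endothelial differences ran from -0.19 (Lyve1) to 0.48 (Kdr), with a median of 0.07. Kdr had a limma adjusted p of 0.015 but stayed under the fold threshold. The erythroid list held dim genes, such as Rhag at 2.08 to 2.66 over the 6 arrays.

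Slc2a8 encodes GLUT8, which sits largely in intracellular membranes and carries glucose and other hexoses. Probe set 1450628_at read 7.51, 7.74 and 7.41 in Mir137-/- liver and 7.52, 7.57 and 7.64 in Mir137+/+ liver. The Mir137-/- arrays held both the highest and the lowest value. The difference was -0.02 (7.55 ± 0.17 against 7.58 ± 0.06, SE 0.11, 95% interval -0.28 to 0.23, limma adjusted p = 0.933).

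**Figure D2:**
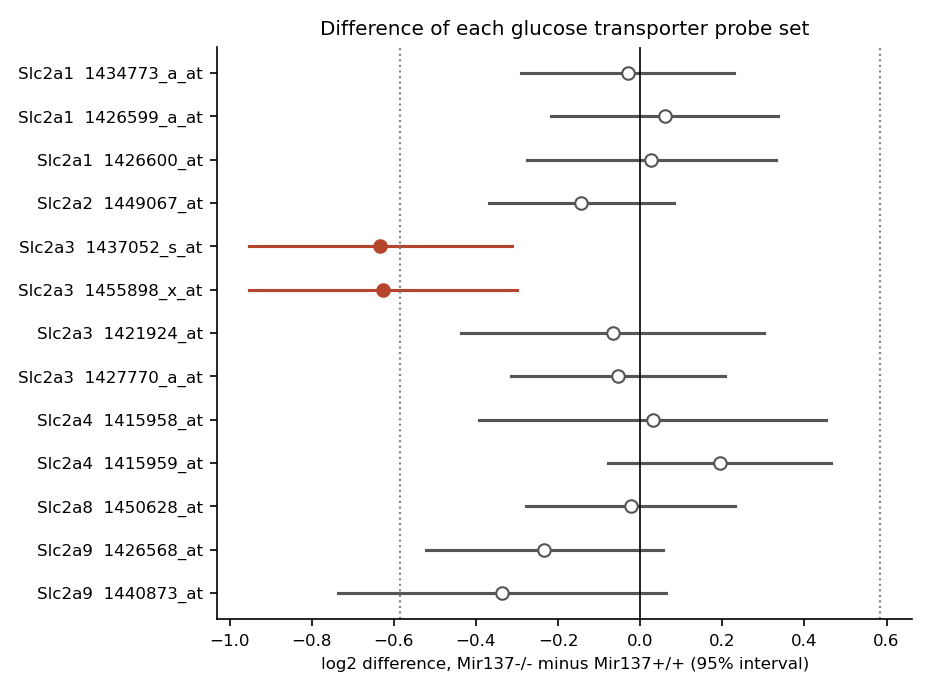
Log2 difference of each probe set, Mir137-/- minus Mir137+/+, with its 95% interval from limma; filled red points passed both thresholds, open points did not, the solid line marks 0 and the dotted lines mark a 1.5-fold change. Both filled points are Slc2a3, and 10 of the 11 open intervals lie between the dotted lines.

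Slc2a3 encodes GLUT3, a high-affinity transporter known from neurons and from white blood cells. Its probe set 1437052_s_at read 5.23, 5.37 and 5.12 in Mir137-/- replicates 1 to 3 and 5.61, 5.90 and 6.11 in Mir137+/+ replicates 1 to 3. Probe set 1455898_x_at read 3.72, 4.23 and 4.20 in Mir137-/- and 4.65, 4.65 and 4.73 in Mir137+/+ liver. In both, every Mir137-/- array lay below every Mir137+/+ array. The first fell by 0.63 (5.24 ± 0.13 against 5.87 ± 0.25, SE 0.14, 95% interval -0.95 to -0.31, limma adjusted p = 0.0305). The second also fell by 0.63 (4.05 ± 0.29 against 4.68 ± 0.05, SE 0.14, 95% interval -0.95 to -0.30, limma adjusted p = 0.0337). The platform annotation gives both probe sets the same source sequence, so they are not 2 independent readings of the gene. The suffixes _s_at and _x_at mark probe sets whose probes can match other transcripts.

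The other Slc2a3 probe sets gave smaller differences. Probe set 1421924_at read 3.41, 2.99 and 2.99 in Mir137-/- and 3.48, 3.09 and 3.02 in Mir137+/+ liver, a difference of -0.07 (limma adjusted p = 0.860). Probe set 1427770_a_at read 2.48, 2.38 and 2.66 against 2.53, 2.45 and 2.70, a difference of -0.05 (limma adjusted p = 0.839). Both overlapped between the groups. They, and 1455898_x_at, had means below the array medians, and 1437052_s_at was the 1 Slc2a3 probe set above them. With 1 probe set per gene, the brightest, Slc2a3 was 1 of 6 transporters called (adjusted p = 0.0247, with 5.72% of all genes called, 2.36% higher and 3.36% lower). With the mean of its 4 probe sets the difference was -0.35, which is 1.27-fold and was not called (adjusted p = 0.0205).

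The Slc2a3 call rested on most of the arrays at once. Leaving out 1 array ended the call of 1437052_s_at for 5 of 6 arrays, all but Mir137+/+ replicate 1. Its difference was -0.77 to -0.52 over all 6 of these fits, with -0.77 in the fit that kept the call. The call of 1455898_x_at ended for 4 of 6 arrays, all but Mir137-/- replicates 2 and 3. Its difference was -0.72 to -0.46 over all 6 fits, with -0.72 in a fit that kept the call. With the 2 Xist-positive Mir137+/+ arrays left out the differences were -0.37 (adjusted p = 0.468) and -0.60 (adjusted p = 0.389), a fit in which the 1 remaining Mir137+/+ array takes its spread from the Mir137-/- group. Without the 2 arrays with pancreas transcripts they were -0.69 (adjusted p = 0.140) and -0.73 (adjusted p = 0.115). The direction was lower in Mir137-/- in all 17 alternatives for both probe sets.

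Neutrophil and B cell markers were lower in Mir137-/- liver, as were 2 of the 4 Slc2a3 probe sets. Of the 8 measured neutrophil markers, 7 fell in Mir137-/- liver and their groups did not overlap (17.5% of all genes lay apart in this direction), with a median difference of -1.54 over the 8, beside a median near 0.00 over all genes. Ngp, a granule protein gene of neutrophil precursors, read 7.19, 8.10 and 7.48 in Mir137-/- and 9.41, 9.83 and 9.61 in Mir137+/+ liver (difference -2.03, adjusted p = 0.00172). Mpo, encoding myeloperoxidase, fell by 1.92 (adjusted p = 0.00301), while Elane, encoding neutrophil elastase, differed by -0.70 without passing (adjusted p = 0.0748). The summed level of the list was 9.70 to 10.39 in Mir137-/- and 11.41 to 11.84 in Mir137+/+ liver on the log2 scale, and its lowest single value was 4.23, for Mpo. All 4 measured B cell markers also fell (median -0.99), and 0 of 7 macrophage and Kupffer cell markers were called. Of 5 platelet and megakaryocyte markers (median -0.15), 1 was called, Ppbp, which fell by 2.44 (limma adjusted p = 0.000432). Over all genes, 3.36% were called lower and 5.72% in either direction. Both called Slc2a3 probe sets lay less far down than the neutrophil median on each Mir137-/- array. On replicates 1 to 3, 1437052_s_at lay 0.64, 0.50 and 0.75 below its Mir137+/+ mean, and 1455898_x_at deviated by -0.96, -0.45 and -0.48. The neutrophil medians lay 1.80, 1.20 and 1.69 below theirs. In whole liver, fewer cells of a type and less RNA per cell cannot be told apart, and the part of the white cell transcripts in the Slc2a3 difference was not tested.

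**Figure D3:**
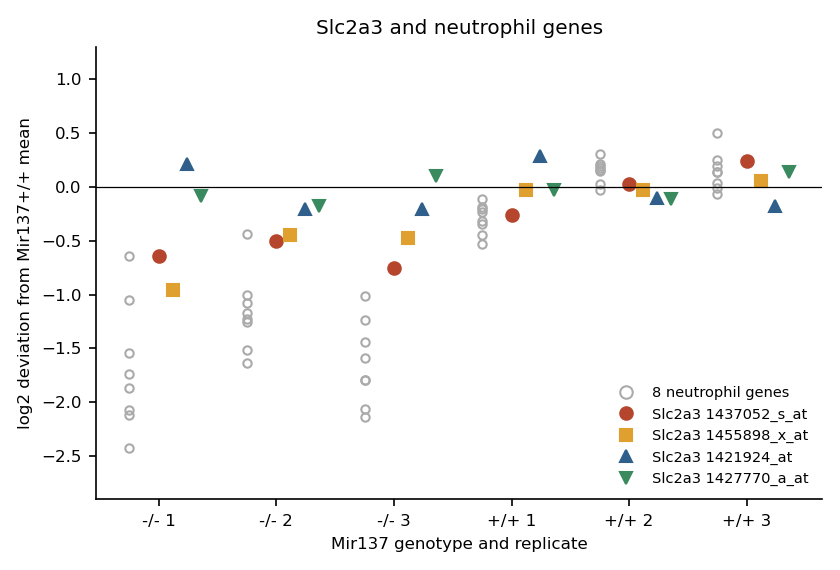
Log2 deviation from the Mir137+/+ mean on each array for the 4 Slc2a3 probe sets (coloured) and 8 neutrophil marker genes (open grey circles). On the 3 Mir137-/- arrays the grey circles lie low, the 1437052_s_at and 1455898_x_at markers lie between 0.45 and 0.96 below 0, and the other Slc2a3 probe sets stay within 0.21 of 0.

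Slc2a4 encodes GLUT4, the insulin-responsive transporter of muscle and fat. Its probe set 1415958_at read 6.27, 5.81 and 5.45 in Mir137-/- replicates 1 to 3 and 5.76, 5.79 and 5.89 in Mir137+/+ replicates 1 to 3. Mir137-/- replicate 1 was the highest of the 6 arrays, 0.38 above the highest Mir137+/+ array, and Mir137-/- replicate 3 was the lowest. The difference was 0.03 (5.84 ± 0.41 against 5.81 ± 0.07, SE 0.19, 95% interval -0.39 to 0.45, limma adjusted p = 0.948). The Mir137-/- SD was the largest of any member probe set.

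Mir137-/- replicate 1 was also the array with muscle transcripts. All 18 skeletal muscle markers were highest there, by a median of 3.01 above the Mir137+/+ mean against -0.07 to 0.14 on the other arrays, and their summed log2 level was 12.87 against 8.52 to 8.80. Acta1, skeletal muscle actin, read 11.38 on that array and 4.68 to 5.84 on the other 5, a deviation of 6.43. The 6 heart muscle markers had a median deviation of 0.06 there, against -0.05 to 0.12 on the other arrays; Nppa was highest there (3.66), Myh6 lay at 2.09 to 2.39 on every array, and Myl4 was called lower in Mir137-/- liver (-1.18, adjusted p = 0.00442). Fat markers were also highest there, with Fabp4 tied with Mir137-/- replicate 2. The 5 adipocyte markers had a median deviation of 0.56, against -0.07 to 0.02 elsewhere, and this median was the deviation of Fabp4. Adipoq, the adiponectin gene, read 4.62 against 2.25 to 2.95, and Ucp1 4.86 against 3.31 to 4.11. Lep (3.23) and Retn (5.02) lay close to their highest Mir137+/+ values of 3.22 and 4.91.

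Slc2a4 went with Acta1 on this array, but by far less. Its probe set 1415958_at lay 0.46 above the Mir137+/+ mean on replicate 1, then 0.00 and -0.36 from it on replicates 2 and 3. Leaving out replicate 1 turned the difference to -0.18 (adjusted p = 0.528). The other probe set, 1415959_at, read 4.85, 4.72 and 4.52 in Mir137-/- and 4.63, 4.50 and 4.38 in Mir137+/+ liver, and replicate 1 was again the highest, by 0.22 over the highest Mir137+/+ array. Its difference of 0.19 was not called (SE 0.12, 95% interval -0.08 to 0.46, limma adjusted p = 0.395). Neither probe set was called with or without replicate 1. The link rests on 1 array, and spread among the Mir137-/- arrays was not set apart from it. Any part of muscle or fat tissue in the Slc2a4 values was not tested, since both marker lists were highest on the same array.

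**Figure D4:**
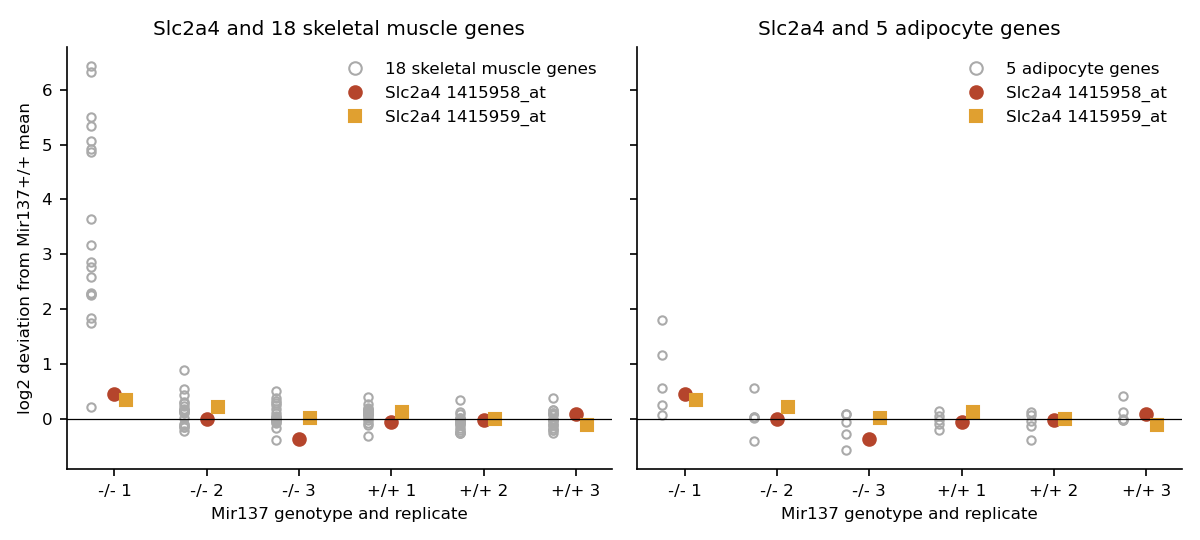
Log2 deviation from the Mir137+/+ mean on each array for the 2 Slc2a4 probe sets (coloured), beside 18 skeletal muscle genes (left) and 5 adipocyte genes (right) as open grey circles. On Mir137-/- replicate 1 the muscle genes reach up to 6.43 (Acta1) and the Slc2a4 markers lie at 0.46 and 0.35.

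Slc2a9 encodes GLUT9, the urate transporter through which hepatocytes take up urate. Probe set 1426568_at read 7.07, 6.76 and 6.71 in Mir137-/- and 7.13, 7.18 and 6.93 in Mir137+/+ liver. Probe set 1440873_at read 5.74, 5.37 and 6.13 against 6.16, 6.08 and 6.01. Both had lower Mir137-/- means but overlapped, with Mir137-/- replicate 1 inside the Mir137+/+ range of the first and replicate 3 inside that of the second. The differences were -0.23 (SE 0.13, 95% interval -0.52 to 0.06, limma adjusted p = 0.329) and -0.34 (SE 0.18, 95% interval -0.74 to 0.06, limma adjusted p = 0.308). The second was the only uncalled member probe set whose interval reached past a 1.5-fold change, so a decrease of that size was not excluded there. The mean of both gave -0.29 (adjusted p = 0.156).

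No member's brightest probe set varied by 1 log2 unit over the 6 arrays. The ranges ran from 0.32 (Slc2a2) to 0.99 (Slc2a3), and genes of like pattern are therefore not named.

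The other genes of hexose and urate handling were read with 1 probe set per gene, on which scale 5.72% of all genes were called, 2.36% higher and 3.36% lower. None of the 5 measured other SLC2 genes was called (median difference 0.04); the nearest were Slc2a13, the myo-inositol transporter, at -0.37 (adjusted p = 0.178) and Slc2a5, the fructose transporter, at 0.29 (adjusted p = 0.375). None of the 6 sodium-glucose cotransporters was called (median 0.03), with Slc5a2, the kidney transporter SGLT2, at 0.39 (adjusted p = 0.0598) and Slc5a9 at 0.21 (adjusted p = 0.350). Counts of 0 in lists this short do not stand apart from that share.

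Of 12 measured genes that trap or release hexose in the cell, 1 fell and none rose (median 0.03), near the 5.72% of all genes called. It was Slc37a4, the glucose-6-phosphate translocase of the endoplasmic reticulum, which read 10.44, 10.51 and 10.62 in Mir137-/- and 11.06, 11.12 and 11.22 in Mir137+/+ liver. The decrease was 0.61 (SE 0.09, adjusted p = 0.00556), or 1.53-fold, and it lost the call in 6 of 19 alternatives, among them leaving out Mir137-/- replicate 1 (-0.57) or Mir137+/+ replicate 3 (-0.57), both just under the fold threshold, and leaving out the Xist-positive arrays (-0.54, adjusted p = 0.201).

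Of 16 measured genes of GLUT trafficking and surface control, 1 rose and none fell (median 0.08), again near 5.72%. It was Txnip, a glucose-induced arrestin that takes GLUT1 and GLUT4 off the membrane. Txnip read 10.38, 10.30 and 10.41 in Mir137-/- and 9.07, 9.44 and 9.55 in Mir137+/+ liver, an increase of 1.01 (SE 0.13, adjusted p = 0.00304). It stayed called in all 19 alternatives, with differences of 0.87 to 1.29. GLUT protein at the membrane, on which Txnip acts, was not measured by the arrays.

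Of 16 measured transcriptional regulators of SLC2 genes, 1 rose and none fell (median -0.02), also near 5.72%. It was Pparg, the nuclear receptor of fat cells, which read 7.63, 7.80 and 7.39 in Mir137-/- and 6.39, 6.33 and 6.01 in Mir137+/+ liver, an increase of 1.36 (SE 0.14, adjusted p = 0.00146). It kept its call in 18 of 19 alternatives and lost it without the Xist-positive arrays (1.22, adjusted p = 0.0740). All 3 Mir137-/- arrays lay above all 3 Mir137+/+ arrays. Without Mir137-/- replicate 1, the array where Adipoq was highest, the difference was 1.35 (limma adjusted p = 0.00583). The fat marker Fabp4 read 9.57 on both Mir137-/- replicates 1 and 2. Any part of fat transcripts in the Pparg difference was not tested.

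Urate genes, the setting of Slc2a9, held the largest change among these lists: of 11 measured, 2 fell and 1 rose (median -0.13), where 3.36% of all genes were called lower and 2.36% higher. Slc22a7, an organic anion transporter of hepatocytes, read 7.49, 6.85 and 7.85 in Mir137-/- and 9.78, 9.74 and 10.04 in Mir137+/+ liver, a decrease of 2.46 (SE 0.23, adjusted p = 0.00107). Xdh, whose enzyme makes urate, read 8.01, 8.02 and 7.75 against 8.86, 8.55 and 8.93 and fell by 0.85 (SE 0.13, adjusted p = 0.00591). Slc22a8, another organic anion transporter, read 4.42, 4.46 and 4.88 against 3.99, 4.12 and 3.89, all below the array medians. It rose by 0.59 (SE 0.14, limma adjusted p = 0.0319) but lost the call in 13 of 18 alternatives. Slc22a7 kept its call in 18 of 19 alternatives, with sex as a term among them (-2.38, adjusted p = 0.0278), and Xdh in 16 of 19. Without the Xist-positive arrays, with 1 Mir137+/+ array remaining, none of these 3 passed, with differences of -2.38 (adjusted p = 0.0679), -0.93 (adjusted p = 0.0935) and 0.60 (adjusted p = 0.321).

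**Figure D5:**
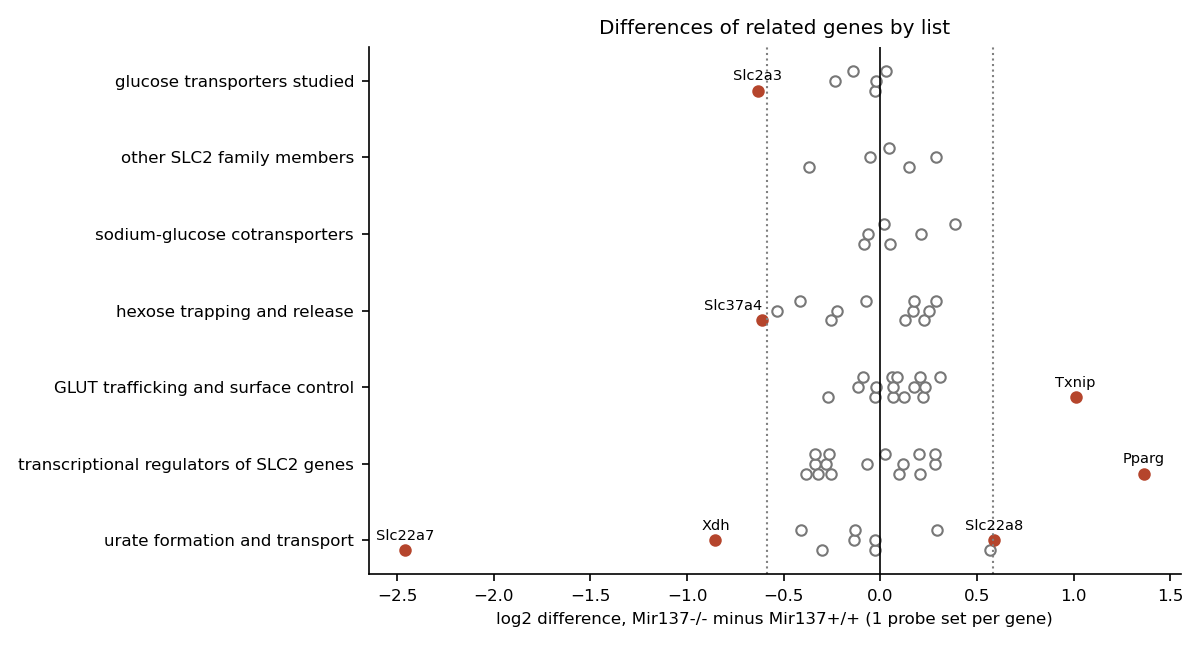
Log2 differences, Mir137-/- minus Mir137+/+, of the 6 glucose transporters and the genes of 6 related lists, 1 point per gene from its brightest probe set; filled named points passed both thresholds, open points did not, and dotted lines mark a 1.5-fold change. Slc2a3 is the only SLC2 gene past the lines, and Slc22a7 (-2.46) and Pparg (1.36) lie farthest out.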

How the data were processed

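The deposited values were log2 expression levels of Affymetrix mouse genome probe sets for 6 liver arrays. The methods state that the authors summarized probes by RMA and set each to its mean as baseline, and the processing notes of the submitters list GCRMA (no version). The sources also differ on RNA input and labelling. Array number, with no read depth, limits the precision.

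Of 45101 probe sets, 64 controls were left out. The platform annotation gave 34945 of the remainder 1 gene symbol, 932 several and 9160 none. Groups came from the genotype labels. limma 3.58.1 (lmFit, eBayes) in R 4.3.3 compared 3 with 3 arrays without covariates, with Benjamini-Hochberg adjustment over all 45037 probe sets. Gene-level values took the brightest probe set per gene. The scripts were tested on simulated data. Alternatives covered the t-test of the methods, scaling, array weights, trend and robust fits, a filter on the dimmest 40%, the fold threshold, a replicate block, sex read from Xist, and arrays left out.

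The members, gene lists and marker lists were chosen with earlier results of these data known. Named list genes were those called, at most 6 per list, or the 2 with the smallest p where none was called. Target sites of miR-137 were not analysed here.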

Additional observations from a re-analysis of the deposited data

How the results depend on the processing

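Only 3 arrays per genotype, of 2 apparent sexes in Mir137+/+, limit every call, and dim probe sets such as 3 of 4 for Slc2a3 have no detection call here. The 2036 probe sets called became 475 with the methods' t-test, 3481 with no fold threshold, 642 with sex as a term, 282 without the Xist-positive arrays and 967 without the arrays with pancreas transcripts. The 2 transporter probe sets called became 0 with the t-test, with sex as a term, without the Xist-positive arrays, without the pancreas arrays and without probe sets ending in _s_at or _x_at, and 0 to 1 when 1 array was left out. The 1 transporter gene called became 0 under the same settings and with probe sets averaged per gene, and 0 to 1 when 1 array was left out. For the Slc2a3 probe sets 1437052_s_at and 1455898_x_at the adjusted p ran over all alternatives from 0.0137 to 0.468 and from 0.0214 to 0.389. The replicate numbers did not pair the arrays (residual correlations of same-numbered arrays 0.08, 0.21 and 0.00), and a replicate block left 1 of the 2 Slc2a3 probe sets called (adjusted p = 0.0450 for 1455898_x_at and 0.0546 for 1437052_s_at).

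Differences that changed sign were all uncalled in both settings. Quantile normalization gave 0.0011 for Slc2a1 1434773_a_at and 0.0133 for Slc2a8. Sex as a term and leaving out the Xist-positive arrays each gave -0.1067 for Slc2a1 1426600_at, 0.0333 for Slc2a8, -0.0033 for Slc2a5 and -0.0533 for Slc5a9. Leaving out the pancreas arrays gave -0.03 for Slc2a1 1426599_a_at and -0.07 for 1426600_at. With 1 array left out in turn, the sign depended on the array for Slc2a4 1415958_at (-0.18 to 0.23), Slc2a1 1434773_a_at (-0.1333 to 0.0317), 1426599_a_at (-0.0517 to 0.1583) and 1426600_at (-0.0467 to 0.1583), Slc2a3 1421924_at (-0.2067 to 0.075) and 1427770_a_at (-0.13 to 0.0167), and Slc2a8 (-0.1167 to 0.0483). The cause of these changes was not tested.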
